A study of Homo sapiens with 6 samples.

Results

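Oxidative phosphorylation genes encode the respiratory chain and ATP synthase of the mitochondrion. They were taken by symbol as protein-coding genes starting with MT-, NDUFA, NDUFB, NDUFC, NDUFS or NDUFV (NDUFAF excluded), SDHA to SDHD, UQCR, COX4 to COX8 and ATP5. The annotation held 104 such genes. Of the 28181 genes in the files, 98 met the rule, 13 encoded by the mitochondrial genome and 85 by the nucleus. COX4I2, COX6A2, COX7B2, COX8C, ATP5MGL and the readthrough gene NDUFC2-KCTD14 met the rule but were not among the listed genes. All 98 passed the minimum for testing, which was a mean of 1 normalized count. The rule also took in ATP5S and the readthrough gene ATP5MF-PTCD1, which carry the prefix.

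Electrons from NADH enter the chain at complex I and those from succinate at complex II, pass through complex III and reach oxygen at complex IV, while complexes I, III and IV pump protons across the inner membrane. Complex V, the ATP synthase, uses the return of these protons to make ATP. Complex II is built from nuclear genes alone, whereas the other complexes combine nuclear subunits with subunits made inside the mitochondrion, whose genome is transcribed as long polycistronic RNAs from both strands and then cut into single messages. Mesenchymal stem cells in culture are known to rely largely on glycolysis and to raise mitochondrial respiration as they differentiate.

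The data came from UE7T-9, a mesenchymal stem cell line from human bone marrow, immortalised with hTERT and HPV E7. UE7T-9 SHC4 carried a lentiviral vector in which the CMV promoter drove SHC4, an adaptor protein of receptor tyrosine kinase signaling, and UE7T-9 Cont carried the matching vector with GFP according to the study's methods. The sample labels call the same controls nontarget and give their genotype as WT. Both vectors held a puromycin resistance gene, so both groups were infected and selected lines. Each group had 3 libraries labelled as biological replicates. The series text speaks of clones, and whether the 3 libraries were separate clones, infections or cultures was not given, so p-values measure only the spread between these libraries.

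The recovered depth was 18144993 to 27721397 reads per library. SHC4 itself measured 56.5, 157 and 130 in UE7T-9 Cont, against 134870, 119166 and 155006 in UE7T-9 SHC4. SHC4 was thus high in the libraries labelled with it and low in the controls, which does not check the vector of the controls. All 8 mesenchymal markers examined were expressed. Of the hematopoietic markers, PTPRC and SPI1 lay between 0 and 6.82 normalized counts in every library, CD34 between 39.6 and 52.7, and CD14 between 52.7 and 88.3. Of the epithelial and endothelial markers, EPCAM and CDH5 lay between 0 and 4.92 and CDH1 between 2.50 and 17.6. The endothelial marker PECAM1 was 7.80, 11.8 and 12.8 in UE7T-9 Cont, against 9.67, 36.6 and 38.4 in UE7T-9 SHC4 (log2 fold change 1.12, limma adjusted p = 0.407). UE7T-9 Cont replicate 1 stood apart from its group. Its mean chi-square per gene was 85.1 and 132 against the other UE7T-9 Cont libraries but 30.5 against UE7T-9 SHC4 replicate 1. FN1, which encodes fibronectin, took 4.26% of its reads, against 2.03% and 1.35% in the other controls and 3.27 to 3.60% in UE7T-9 SHC4. UE7T-9 SHC4 replicate 1 also differed from the other libraries of its group, with a mean chi-square per gene of 74.0 and 62.4 against 13.1 between replicates 2 and 3. Results for the mitochondrial mRNAs as a set are given with and without these libraries, and those for single nuclear members only in part.

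MT-ATP8 is shown because its values were the most variable of the mitochondrial set and because it shares bases with its neighbour. It lies on the plus strand of the mitochondrial chromosome at chrM:8366-8572 of GRCh38 and encodes a short subunit of the membrane part of ATP synthase. Capitals mark the 46 bases of its 207 that also belong to MT-ATP6, the gene of the proton channel subunit.
MT-ATP8: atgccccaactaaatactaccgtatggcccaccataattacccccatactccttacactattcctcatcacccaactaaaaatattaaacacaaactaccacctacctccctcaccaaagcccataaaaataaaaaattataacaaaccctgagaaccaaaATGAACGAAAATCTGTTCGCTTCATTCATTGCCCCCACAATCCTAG

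The 4 nuclear promoters printed here belong to members whose UE7T-9 SHC4 and UE7T-9 Cont values did not overlap. They are the 250 bases before the gene start in RefSeq on GRCh38.p14, on the strand of the gene, at chr1:17054033-17054282 (minus strand) for SDHB, chr19:29213152-29213401 (minus) for UQCRFS1, chrX:119871582-119871831 (plus) for NDUFA1 and chr5:140647631-140647880 (minus) for NDUFA2. Capitals mark NRF1 or GABP letters on either strand. NRF1 and GABP (an ETS factor) are known activators of respiratory chain genes.
SDHB: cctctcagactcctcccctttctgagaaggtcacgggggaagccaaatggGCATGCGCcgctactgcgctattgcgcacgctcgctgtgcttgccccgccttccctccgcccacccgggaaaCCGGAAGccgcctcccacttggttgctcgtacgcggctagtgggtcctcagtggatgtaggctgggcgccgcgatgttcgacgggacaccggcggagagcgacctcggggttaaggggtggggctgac
UQCRFS1: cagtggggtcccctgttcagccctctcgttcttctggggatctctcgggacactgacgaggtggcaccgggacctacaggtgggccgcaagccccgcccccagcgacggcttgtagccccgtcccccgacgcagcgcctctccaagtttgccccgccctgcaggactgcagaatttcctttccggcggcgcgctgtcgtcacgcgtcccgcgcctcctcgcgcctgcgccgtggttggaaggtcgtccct
NDUFA1: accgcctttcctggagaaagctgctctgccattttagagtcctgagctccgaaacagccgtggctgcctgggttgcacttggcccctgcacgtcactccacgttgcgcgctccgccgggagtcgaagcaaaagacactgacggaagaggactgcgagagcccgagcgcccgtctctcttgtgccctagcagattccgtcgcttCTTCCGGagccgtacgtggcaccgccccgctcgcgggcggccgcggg
NDUFA2: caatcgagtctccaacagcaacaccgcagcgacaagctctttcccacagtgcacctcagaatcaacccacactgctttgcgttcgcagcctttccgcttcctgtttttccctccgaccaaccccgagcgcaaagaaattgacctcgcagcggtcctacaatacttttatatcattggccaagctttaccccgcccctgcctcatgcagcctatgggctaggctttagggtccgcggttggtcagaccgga

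The SDHB window held the NRF1 letters GCATGCGC starting at -200 and the GABP letters CCGGAAG at -128, counted from the gene start. The NDUFA1 window held the GABP letters on the other strand at -47, and the UQCRFS1 and NDUFA2 windows held neither. A window was found for 69 of the 85 nuclear members, and the shares below use the whole window, which runs on past the gene start and in SDHB also held YY1 letters there. The NRF1 letters were in 14 of them (20.3%), compared with 3.68% of the 27305 promoters of all genes. The GABP letters were in 21 (30.4%, all promoters 12.2%), the YY1 letters AAGATGGC in 12 (17.4%, all promoters 3.52%) and the ERR letters TCAAGGTCA in 1 (1.45%, all promoters 0.432%). Both strands were searched, and the NRF1 and GABP letters were shortened after the windows had been seen. These matches are a description of the letters.

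The comparison asked whether SHC4 overexpression went with a different level of the respiratory chain transcripts, with both genomes taken apart. All 13 mitochondrial mRNAs had a higher mean in UE7T-9 SHC4 than in UE7T-9 Cont, by 20.2% for MT-ND2 to 83.9% for MT-ND6, and the 85 nuclear members lay on both sides of 0. No member of either genome passed the test. For 12 of the 13 mitochondrial mRNAs the libraries of both groups overlapped, and replicate 1 was the lowest library of each group for all 13. In RNA from whole cultures, a change in the number of cells of a type and a change in RNA per cell cannot be told apart.

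The 13 mitochondrial mRNAs together took 1.14%, 2.23% and 2.39% of the reads of UE7T-9 Cont replicates 1, 2 and 3. They took 1.67%, 3.10% and 2.70% in UE7T-9 SHC4. The 95% Wilson intervals of these shares, which cover counting error only, were narrow, such as 1.134 to 1.143% in UE7T-9 Cont replicate 1 and 3.090 to 3.103% in UE7T-9 SHC4 replicate 2. The groups overlapped, since UE7T-9 SHC4 replicate 1 lay below UE7T-9 Cont replicates 2 and 3. The mean was 1.92% ± 0.681 for the controls, against 2.49% ± 0.734 for UE7T-9 SHC4 (SD, n = 3 each), a difference of 0.57 percentage points that was smaller than either SD.

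The 85 nuclear members took a smaller and steadier share. It was 0.468%, 0.5003% and 0.531% in UE7T-9 Cont, against 0.503%, 0.441% and 0.455% in UE7T-9 SHC4, with intervals no wider than from 0.497 to 0.504% in any library, and the groups overlapped. The means were 0.4997% ± 0.0313 and 0.466% ± 0.0325 (SD, n = 3 each). The ratio of mitochondrial to nuclear member reads was 2.43, 4.46 and 4.501 in UE7T-9 Cont, against 3.32, 7.02 and 5.93 in UE7T-9 SHC4, again with replicate 1 the lowest of each group.

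The 2 mitochondrial rRNAs, which form the core of the mitochondrial ribosome and are not members, did not follow the mRNAs across libraries. Their share of reads was 0.217%, 0.234% and 0.186% in UE7T-9 Cont, against 0.283%, 0.260% and 0.290% in UE7T-9 SHC4, so the groups did not overlap and replicate 1 was not low in either. Of all genes tested, 9.13% had the same separation upward in normalized counts. With 3 libraries against 3, the smallest two-sided p of an exact permutation test is 0.1. MT-RNR1 was 6003, 5541 and 4697 in UE7T-9 Cont, against 7578, 7170 and 7507 in UE7T-9 SHC4. Its log2 fold change was 0.46 (SE 0.14, limma adjusted p = 0.206, DESeq2 adjusted p = 0.0544). MT-RNR2 had a log2 fold change of 0.50 (SE 0.24, limma adjusted p = 0.376).

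**Figure D1:**
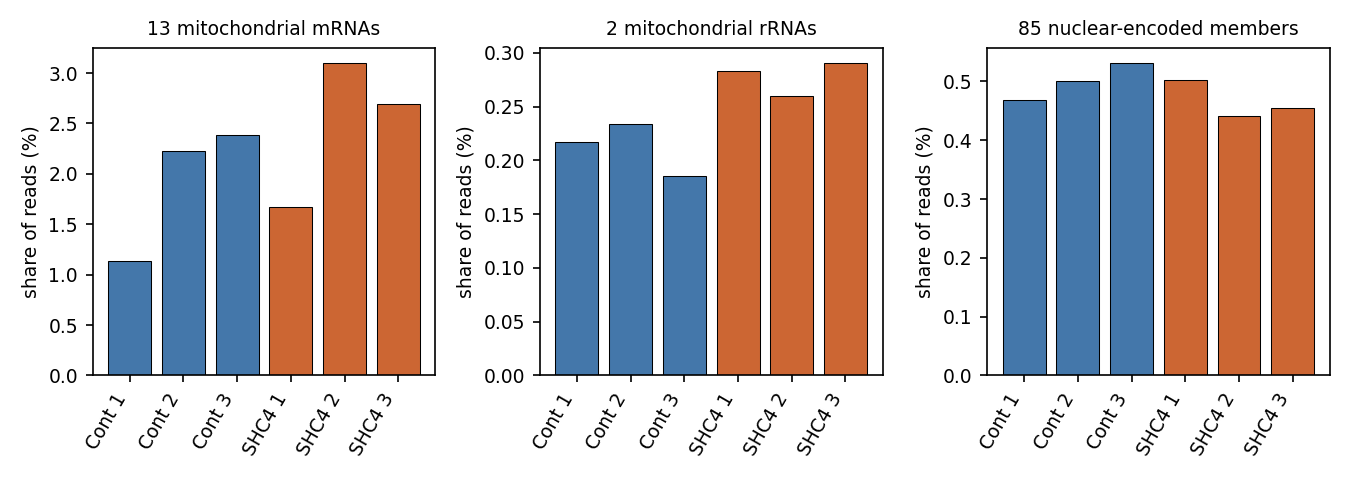
Bars give the share of reads in percent for each of the 6 libraries, with separate axes for the 13 mitochondrial mRNAs, the 2 mitochondrial rRNAs and the 85 nuclear-encoded members. Replicate 1 has the lowest mRNA share of each group (1.14% and 1.67%), and the groups separate for the rRNAs but not for the mRNAs or the nuclear members.

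Compared per kb of exon, the mitochondrial mRNAs stood far above the nuclear members. Mean normalized counts per kb ran from 8285 for MT-ATP8 to 102817 for MT-CO1, while the nuclear members had a median of 404 and reached 3414 at most, for ATP5F1B. MT-CO1 and MT-CO2 (70502), both catalytic subunits of complex IV, were the most abundant, followed by MT-ND4 (52712), MT-CO3 (45897), MT-ND4L (45782) and MT-ATP6 (42640). MT-CYB (31734), MT-ND2 (29241), MT-ND1 (24387), MT-ND3 (20470), MT-ND6 (17825) and MT-ND5 (14383) came next. The within-group SD of the mitochondrial mRNAs had a median of 0.58 on the log2 scale, so neighbours in this order that lie as near as MT-CO3, MT-ND4L and MT-ATP6 did not differ beyond it.

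Among the 7 mitochondrial genes of complex I, MT-ND6 and MT-ND5 had the largest log2 fold changes. MT-ND6, the single light-strand mRNA, encodes a membrane subunit and lies at chrM:14149-14673 on the minus strand. Its normalized count was 2875, 8861 and 8041 in UE7T-9 Cont, against 4609, 18278 and 13486 in UE7T-9 SHC4. Replicates 2 and 3 of UE7T-9 SHC4 lay above all controls and replicate 1 below 2 of them. The mean was 6592 ± 3246 against 12124 ± 6936 (SD, n = 3 each), and the log2 fold change was 0.82 (SE 0.54, limma adjusted p = 0.520). Whether the counting used strand is not given in the sources used here, so reads of the opposite strand may be part of the MT-ND6 count.

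MT-ND5, a proton-pumping subunit, was 9593, 25382 and 23955 in UE7T-9 Cont, against 15671, 44250 and 37524 in UE7T-9 SHC4 (log2 fold change 0.72, SE 0.46, limma adjusted p = 0.509). MT-ND4, another pumping subunit, was 32549, 74184 and 74308 against 45715, 116635 and 92434 (log2 fold change 0.49). Both had the pattern of MT-ND6, with 2 libraries of UE7T-9 SHC4 above every control and replicate 1 inside the range of the controls. MT-ND4L, whose last 7 bases overlap MT-ND4, was 8580, 13063 and 12586 against 12812, 18179 and 16363 (log2 fold change 0.48, SE 0.21, limma adjusted p = 0.353). MT-ND3 was 4546, 6925 and 6839 against 6596, 8592 and 8999 (log2 fold change 0.41, SE 0.20, limma adjusted p = 0.392). In these short membrane subunit genes replicate 1 was less far below the other libraries. MT-ND1 and MT-ND2, also membrane subunits, had the smallest log2 fold changes of the 7. MT-ND1 was 11496, 25511 and 25463 against 16939, 31262 and 29216 (log2 fold change 0.35). MT-ND2 was 13526, 34075 and 35405 against 18298, 44225 and 37286 (log2 fold change 0.30, SE 0.43, limma adjusted p = 0.796).

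MT-CYB encodes cytochrome b, the mitochondrial subunit of complex III. It was 17991, 34543 and 34350 in UE7T-9 Cont, against 26905, 56303 and 47158 in UE7T-9 SHC4, with a log2 fold change of 0.58 (SE 0.35, limma adjusted p = 0.483). Here too UE7T-9 SHC4 replicate 1 lay inside the range of the controls.

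The 3 mitochondrial subunits of complex IV form its catalytic core. MT-CO3, at chrM:9207-9990, was 22576, 31825 and 32918 in UE7T-9 Cont, against 34802, 47451 and 46327 in UE7T-9 SHC4. It was the 1 mitochondrial mRNA whose groups did not overlap, where 9.13% of all genes tested had the same separation upward. Its log2 fold change was 0.56 (SE 0.24, unadjusted p = 0.0432, limma adjusted p = 0.329, DESeq2 adjusted p = 0.106). MT-CO1 was 100128, 142170 and 147609 against 146836, 214620 and 199904 (log2 fold change 0.53, SE 0.37, limma adjusted p = 0.554). Its lowest UE7T-9 SHC4 value lay just under the highest control. MT-CO2 was 29162, 50084 and 49987 against 37786, 63511 and 58809 (log2 fold change 0.32, SE 0.31, limma adjusted p = 0.686).

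The 2 mitochondrial subunits of ATP synthase differed in spread. MT-ATP6 was 12190, 28026 and 28352 in UE7T-9 Cont, against 19820, 47635 and 38204 in UE7T-9 SHC4 (log2 fold change 0.63, SE 0.40, limma adjusted p = 0.509). MT-ATP8 was 271, 1738 and 1779 against 478, 3543 and 2482 (log2 fold change 0.77, SE 0.84, limma adjusted p = 0.717). MT-ATP8 had the widest within-group SD of the 13, 1.55 on the log2 scale. The 46 bases it shares with MT-ATP6, shown in capitals above, are 22.2% of its length, and how reads in such a stretch were counted is not given in the sources used here.

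**Figure D2:**
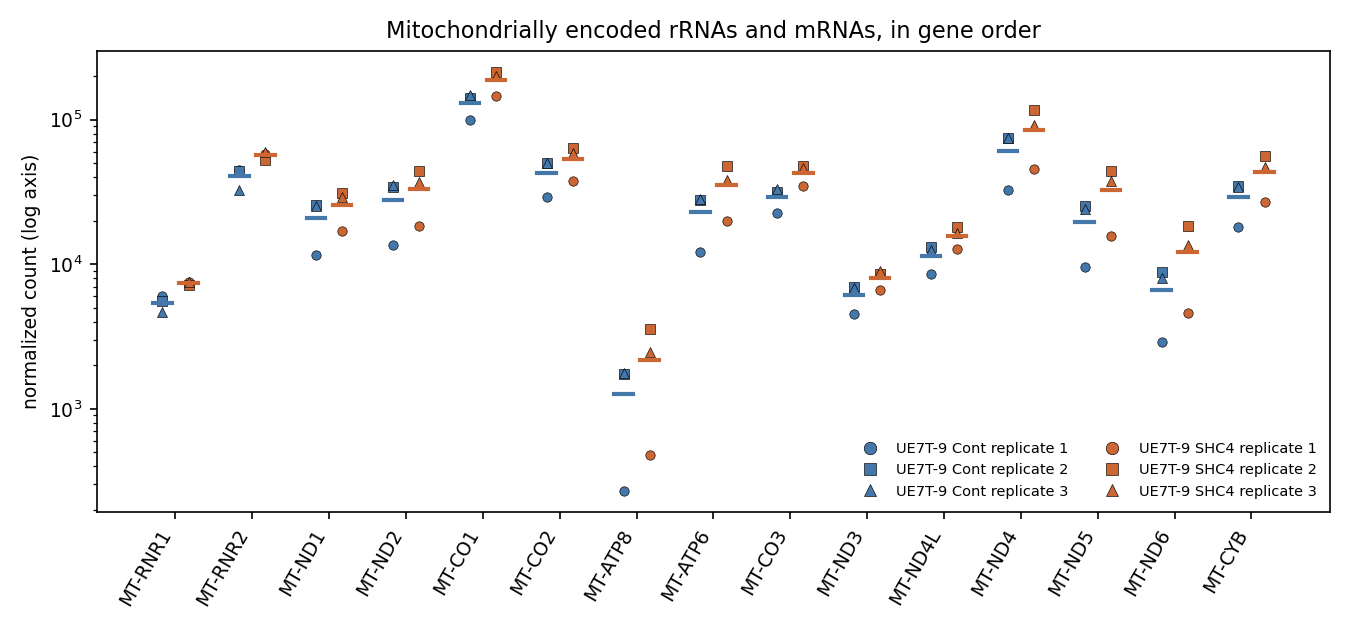
Normalized counts on a log axis for the 2 rRNAs and 13 mRNAs of the mitochondrial genome in gene order, with blue symbols for UE7T-9 Cont, orange for UE7T-9 SHC4, a marker shape per replicate and a bar at each group mean. Circles (replicate 1) lie lowest in both groups for all 13 mRNAs and for neither rRNA.

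As a set, 13 of 13 mitochondrial mRNAs had a higher mean in UE7T-9 SHC4. The median log2 fold change was 0.53 (range 0.30 to 0.82) beside -0.004 over the 23040 genes tested. The limma test called 0 of the 13 in either direction, where it called 0.0564% of all genes higher and 0.00868% lower. DESeq2 on the recovered reads called 0 of 13 (all genes 2.06% higher and 2.08% lower), and edgeR called 0 of 13 (all genes 0.0631% higher and 0.00631% lower). At an unadjusted p below 0.05, limma listed 1 of 13 (MT-CO3), beside 14.4% of the 23040 genes tested. DESeq2 listed 3 of 13 (MT-CO3, MT-CO1 and MT-ND4L), beside 10.4% of the 28173 genes to which it gave a p. edgeR listed 1 of 13 (MT-CO3), beside 17.6% of the 15859 genes it tested. The lowest adjusted p was 0.329 in limma, 0.106 in DESeq2 and 0.278 in edgeR. The 13 genes are read from shared transcripts and are not independent of each other. All 13 stayed higher in mean under library size scaling (median 0.42) and TMM normalization (median 0.54). Each scaling shifts all genes by nearly the same amount, here less than the smallest of the 13 changes, so these signs could not turn.

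Replicate 1 was the lowest library of both groups for 13 of 13 mitochondrial mRNAs, against 17.5% of all genes tested and 22.7% of those with a mean of at least 1000. Its level over the mean of replicates 2 and 3 had a median of 0.451 in UE7T-9 Cont (range 0.154 to 0.697), against 0.520 in UE7T-9 SHC4 (range 0.159 to 0.750). MT-ATP8 was lowest in both groups. MT-ND6 followed at 0.340 in UE7T-9 Cont, against 0.290 in UE7T-9 SHC4, while MT-CO3 stood at 0.697 and 0.742. The nuclear members had medians of 0.969 and 1.10, and the 2 rRNAs medians of 1.17 and 1.03. In both replicate 1 libraries the 13 mRNAs were thus low beside the nuclear members and the rRNAs, and MT-ATP8, MT-ND6 and MT-ND5 had the lowest ratios in both groups. The part of RNA quality or handling in this was not tested.

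**Figure D3:**
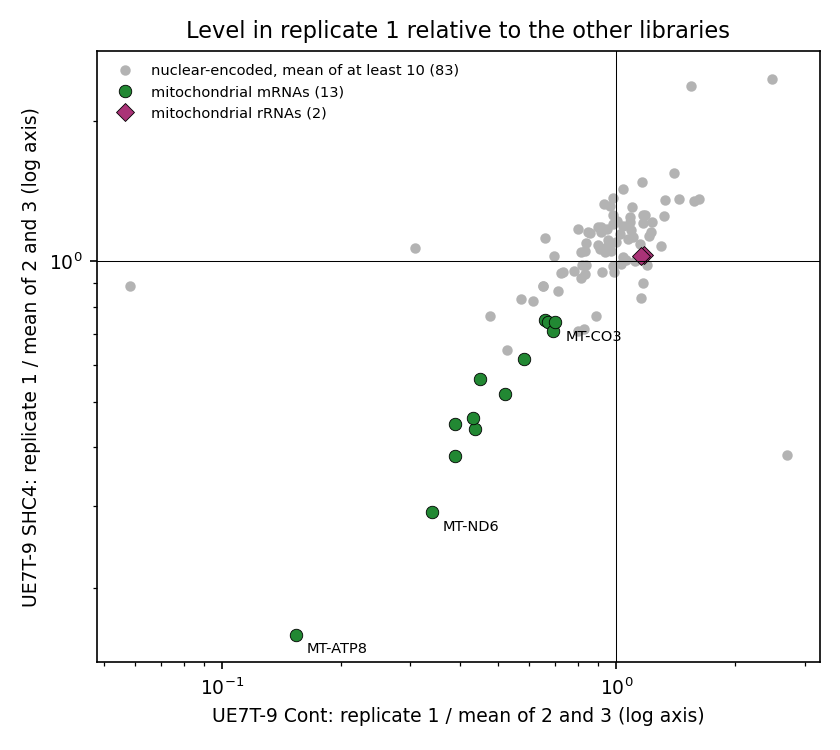
Each point is a gene, placed by its normalized count in replicate 1 over the mean of replicates 2 and 3, with UE7T-9 Cont on the x axis and UE7T-9 SHC4 on the y axis (log axes, lines at 1). The 13 mitochondrial mRNAs (green) lie below 1 on both axes, with MT-ATP8 at 0.154 and 0.159, while the 2 rRNAs (purple) lie above 1 and the 83 nuclear members with a mean of at least 10 (grey) scatter around 1.

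The direction of the mitochondrial difference depended in part on these libraries. Without UE7T-9 Cont replicate 1 the median log2 fold change of the 13 was 0.23, with 10 of 13 above 0, and MT-ND1 (-0.03), MT-ND2 (-0.16) and MT-ATP8 (-0.12) changed sign. Without UE7T-9 SHC4 replicate 1 the median was 0.71 with 13 of 13 above 0, and limma called 0 of them. Without replicate 1 of either group, an alternative chosen after seeing the data, the median was 0.52 with 13 of 13 above 0. Between the remaining 2 libraries of each group, limma called 5.26% of all genes higher and 4.33% lower, and 3 of the 13 rose. These were MT-ND6 (log2 fold change 0.90, limma adjusted p = 0.0118), MT-ND5 (0.72, limma adjusted p = 0.0238) and MT-ATP8 (0.75, limma adjusted p = 0.0234). MT-ATP6 (limma adjusted p = 0.0577), MT-CO3 (0.0614) and MT-CYB (0.0628) were the next lowest.

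Copies of mitochondrial genes lie in the nuclear genome, and short reads can be shared between a gene and its copy. Together the listed copies took 0.0076 to 0.0215% of the reads, far less than the genes themselves. MTND2P28, a copy of MT-ND2 sequence, was 774, 1870 and 1814 in UE7T-9 Cont, against 1019, 2215 and 2151 in UE7T-9 SHC4, with the low replicate 1 of MT-ND2. MTCO1P12, a copy of MT-CO1 sequence, was 118, 218 and 218 against 273, 335 and 363 (log2 fold change 0.85, SE 0.25, limma adjusted p = 0.201). Of the 10 copies tested, 9 had a higher mean in UE7T-9 SHC4, and their counts are uncertain wherever reads fit both places.

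The 85 nuclear members had a median log2 fold change of -0.007, with 41 above 0 and 44 below, against -0.004 over all genes. Their log2 fold changes ranged from -0.36 to 0.65, and 82 of 85 lay within 0.5 of 0. Their median within-group SD was 0.17 on the log2 scale, compared with 0.375 for all genes and 0.58 for the mitochondrial mRNAs. All genes had a lower median level per kb, 30.3 against 404, and no comparison at a matched level was made. The SD was not particular to the members. Its median was 0.172 for mitochondrial ribosome proteins, 0.152 for assembly factors, 0.142 for TCA cycle genes and 0.232 for antioxidant and uncoupling genes. No nuclear member was called by limma, DESeq2 or edgeR, and the lowest limma adjusted p was 0.257. At an unadjusted p below 0.05, each of the 3 tools listed the same 3 members, COX7A1, ATP5S and SDHB. They were 3 of 85 in limma and DESeq2 and 3 of the 82 that edgeR tested. These are smaller shares than the 14.4% of all genes in limma, 10.4% in DESeq2 and 17.6% in edgeR. Library size scaling moved the median of all genes to -0.10 and that of the nuclear members to -0.11, with 19 of 85 above 0, while TMM normalization left 45 of 85 above 0.

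**Figure D4:**
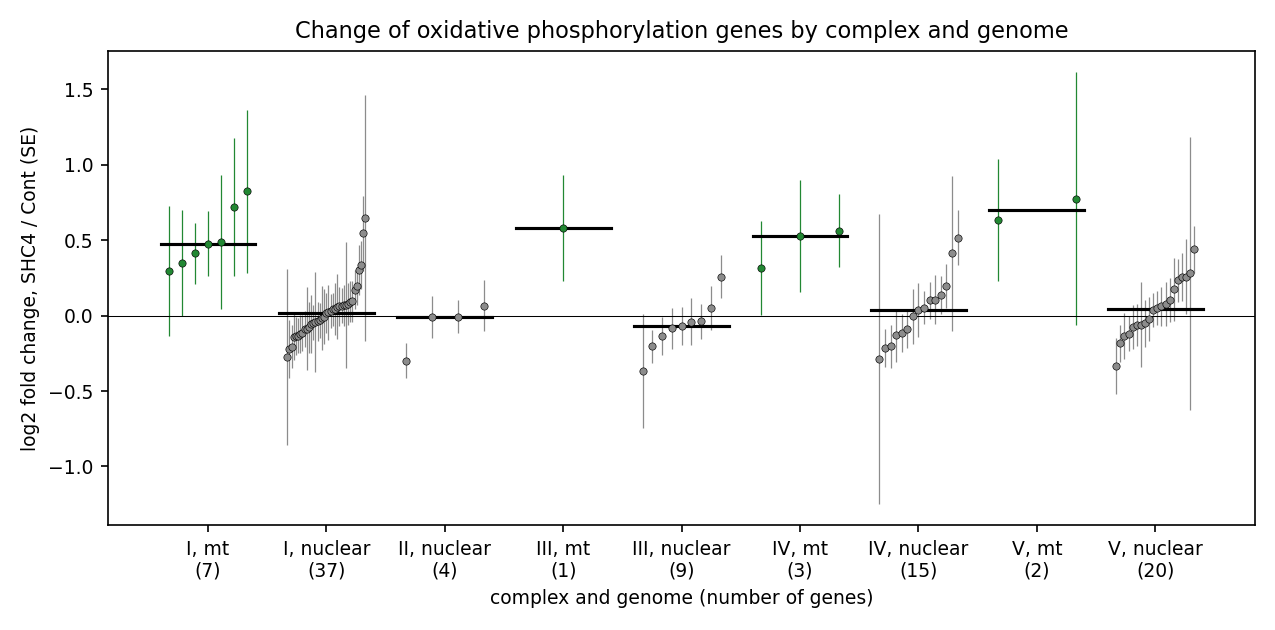
Log2 fold change of UE7T-9 SHC4 over UE7T-9 Cont for each member, with its SE, grouped by complex and genome (green mitochondrial, grey nuclear) and with a black bar at each group median. The mitochondrial points all lie above 0 (0.30 to 0.82), and the nuclear medians lie between -0.07 and 0.04.

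The groups did not overlap for 7 nuclear members. For 5 the UE7T-9 SHC4 libraries were above every control (5 of 85, all genes 9.13%), and for 2 they were below (2 of 85, all genes 10.2%). Neither count was above that of all genes.

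Complex I had 37 nuclear members with a median log2 fold change of 0.02. NDUFA2, a small accessory subunit, was 291.5, 390 and 406 in UE7T-9 Cont, against 438, 461 and 462 in UE7T-9 SHC4 (log2 fold change 0.34, SE 0.16, limma adjusted p = 0.373). NDUFA1, an accessory subunit needed for assembly, was 395, 563 and 575 against 633, 620.1 and 611 (log2 fold change 0.30, SE 0.16, limma adjusted p = 0.436). In both genes UE7T-9 Cont replicate 1 was the lowest library and the 3 UE7T-9 SHC4 values lay close together. Without that library the log2 fold changes were 0.19 and 0.13. NDUFA11, an accessory membrane subunit, was 112, 164 and 227 against 208, 248.9 and 252, with overlap at UE7T-9 SHC4 replicate 1 (log2 fold change 0.55, SE 0.25, limma adjusted p = 0.362). Its log2 fold change was 0.29 without UE7T-9 Cont replicate 1. NDUFA9 was 182, 243 and 270 against 178, 216 and 196 (log2 fold change -0.22). NDUFS5 had the highest level per kb of the complex (3305) and was 1916, 1852 and 1908 against 1889, 1598 and 1704 (log2 fold change -0.13). The widest values of the complex came from sparse genes. NDUFA7 was 0.975, 17.7 and 15.7 against 11.4, 14.1 and 11.6, and its log2 fold change of 0.65 became -0.40 without UE7T-9 Cont replicate 1. NDUFV2, a subunit of the NADH-binding module, was between 5.27 and 23.4 normalized counts in every library. NDUFA7 and NDUFV2 share 33.5% and 28.4% of their exon bases with other annotated genes, so reads there could be split or left out.

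Complex II, succinate dehydrogenase, has 4 members, all nuclear. SDHB, the iron-sulfur subunit, whose promoter with the NRF1 and GABP letters is printed above, was 1199, 1153 and 1248 in UE7T-9 Cont, against 1039, 918 and 970.0 in UE7T-9 SHC4. All 3 UE7T-9 SHC4 libraries lay below all controls. The mean was 1200 ± 47.9 against 976 ± 60.5 (SD, n = 3 each), 18.7% lower, with a log2 fold change of -0.30 (SE 0.11, unadjusted p = 0.0277, limma adjusted p = 0.287, DESeq2 adjusted p = 0.245). Leaving out single libraries gave values from -0.35 to -0.26. The other subunits did not move with it. SDHA, the flavoprotein, was 4044, 3731 and 3020 against 3506, 3579 and 3556 (log2 fold change -0.01, SE 0.14). SDHC, a membrane anchor, was 1829, 1906 and 1812 against 1778, 1885 and 1859 (log2 fold change -0.007, SE 0.11). SDHD, the other anchor, was 965, 1200 and 1134 against 921, 1172 and 1394 (log2 fold change 0.07, SE 0.17). The groups overlapped for all 3.

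Complex III had 9 nuclear members with a median log2 fold change of -0.07, of which 7 lay below 0. UQCRFS1, the Rieske iron-sulfur protein, was 1806, 1780 and 1949 in UE7T-9 Cont, against 1656, 1523 and 1624 in UE7T-9 SHC4. Its groups did not overlap, and its log2 fold change was -0.20 (SE 0.11, limma adjusted p = 0.442). UQCRB, a small structural subunit, was 2490, 2131 and 2411 against 3348, 2526 and 2594, higher in every UE7T-9 SHC4 library, with a log2 fold change of 0.26 (SE 0.14, limma adjusted p = 0.449). UQCRQ, the most abundant per kb (1288), was 1803, 2067 and 1949 against 2069, 1740 and 1749 (log2 fold change -0.07). UQCRH, the hinge protein, was 1729, 1762 and 1759 against 2230, 1603 and 1659 (log2 fold change 0.05), with UE7T-9 SHC4 replicate 1 apart from the others. UQCRHL, a near-copy of UQCRH whose reads can be shared with it, averaged 80.5 and 66.4 (log2 fold change -0.36, SE 0.38).

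Complex IV had 15 nuclear members with a median log2 fold change of 0.04. COX7A1, the form of subunit VIIa typical of heart and skeletal muscle, was 309, 481 and 372 in UE7T-9 Cont, against 526, 499 and 618 in UE7T-9 SHC4. The groups did not overlap, although the replicate 2 values of both groups lay close. Its mean was 387 ± 87.3 against 548 ± 62.3 (SD, n = 3 each). The log2 fold change was 0.52 (SE 0.18, unadjusted p = 0.0186, limma adjusted p = 0.257, DESeq2 adjusted p = 0.196), and 0.37 without UE7T-9 Cont replicate 1. COX7A2, the widely expressed form, was 1503, 1854 and 1906 against 1688, 1343 and 1539 (log2 fold change -0.20, SE 0.14, limma adjusted p = 0.556). COX7A2L, a related protein of supercomplexes, had a log2 fold change of 0.04 (SE 0.18). The difference between COX7A1 and COX7A2 was not tested.

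No other isoform of complex IV had groups that did not overlap. COX4I1, the common form of subunit IV, was 4687, 3681 and 3424 against 4869, 3876 and 3907 (log2 fold change 0.11). COX8A, the most abundant per kb (1862), was 885, 998 and 1063 against 991, 871 and 856 (log2 fold change -0.12). COX7B had a log2 fold change of -0.22 (SE 0.12, limma adjusted p = 0.462), COX6A1 of -0.006 and COX6B1 of 0.05. COX6B2, known from testis, lay between 0 and 12.95 normalized counts. NDUFA4, counted here with complex IV, had a log2 fold change of -0.09, and its hypoxia-inducible relative NDUFA4L2 was 81.9, 43.6 and 22.6 against 106, 37.5 and 48.9 (log2 fold change 0.41, SE 0.51).

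Complex V had 20 nuclear members with a median log2 fold change of 0.04. ATP5F1B, the catalytic beta subunit and the most abundant nuclear member per kb, was 8178, 7823 and 8833 in UE7T-9 Cont, against 8764, 6777 and 7186 in UE7T-9 SHC4 (log2 fold change -0.14, SE 0.15, limma adjusted p = 0.726). ATP5MD, a small membrane subunit, was 1034, 1377 and 1763 against 1167, 1002 and 1076 (log2 fold change -0.33, SE 0.19, limma adjusted p = 0.450). The control values of ATP5MD were spread over a wider range than those of UE7T-9 SHC4. ATP5IF1, the inhibitor of ATP hydrolysis, was 1060, 1266 and 1285 against 1091, 1007 and 1068 (log2 fold change -0.18, SE 0.12, limma adjusted p = 0.533). ATP5MC1, ATP5MC2 and ATP5MC3, which encode the same c-ring protein, had log2 fold changes of -0.05, -0.02 and 0.05.

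ATP5S carries the prefix but is not counted among the core subunits of the enzyme. It was 314, 355 and 352 in UE7T-9 Cont, against 386, 517 and 494 in UE7T-9 SHC4, with no overlap. Its log2 fold change was 0.44 (SE 0.16, unadjusted p = 0.0190, limma adjusted p = 0.259, DESeq2 adjusted p = 0.181), and 20.1% of its exon bases are shared with genes on the other strand. ATP5MF-PTCD1, a readthrough gene sharing 93.8% of its exon bases, lay between 0 and 7.06. Without replicate 1 of either group, limma called 1 nuclear member higher, ATP5S (log2 fold change 0.51), and 1 lower, ATP5MD (log2 fold change -0.59), of 85, beside the 5.26% and 4.33% of all genes.

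**Figure D5:**
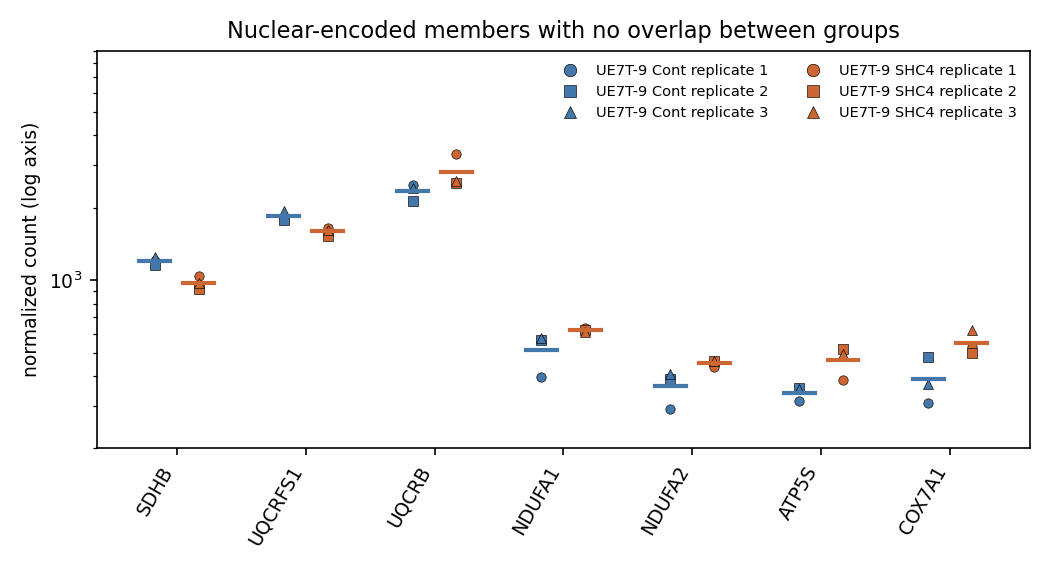
Normalized counts on a log axis for the 7 nuclear-encoded members whose groups did not overlap, ordered by log2 fold change from SDHB (-0.30) to COX7A1 (0.52), with blue symbols for UE7T-9 Cont, orange for UE7T-9 SHC4, a marker shape per replicate and a bar at each group mean.

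Other genes that serve the chain were tallied by list, and limma called 0 in each list. Counts at an unadjusted limma p below 0.05 are given beside the 14.4% of all genes at that p. The mitochondrial ribosome proteins had 23 of 78 above 0 and 55 below (median -0.10), with 2 of 78 at that p, and their log2 fold changes with a mean of at least 10 ran from -0.48 for MRPL39 to 0.43 for MRPS24. The electron carriers outside the rule had 3 of 15 above and 12 below (median -0.14), with 1 of 15 at that p. Their highest was COQ8A, a coenzyme Q synthesis gene (log2 fold change 0.25, SE 0.13, limma adjusted p = 0.423). Their lowest was CYCS, cytochrome c, at 2056, 2671 and 2697 against 2065, 1712 and 1992 (log2 fold change -0.36, SE 0.15, limma adjusted p = 0.314). The assembly factors had 21 of 48 above 0 (median -0.02), with 3 higher and 1 lower at that p. The highest, the complex IV factor PET100, was 29.2, 12.95 and 22.6 against 47.5, 21.6 and 36.1 (log2 fold change 0.68, SE 0.43, limma adjusted p = 0.510). The lowest, the complex I factor NDUFAF4, was 245, 306 and 294 against 193, 177 and 189 (log2 fold change -0.59, SE 0.16, limma adjusted p = 0.184, DESeq2 adjusted p = 0.0532). The TCA cycle genes had 4 of 18 above 0 (median -0.07), with 3 of 18 at that p, from PDHX at -0.56 to IDH2 at 0.43.

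The genes of mitochondrial DNA replication, transcription and RNA stability had 11 of 36 above 0 and 25 below (median -0.11), and 5 of 36 had an unadjusted limma p below 0.05, a share near the 14.4% of all genes. DESeq2 called 2 of the 36, both lower, where it called 2.08% of all genes lower. MGME1, an exonuclease of mitochondrial DNA, was 1113, 1375 and 1661 in UE7T-9 Cont, against 896, 894 and 907 in UE7T-9 SHC4 (log2 fold change -0.60, limma adjusted p = 0.176, DESeq2 adjusted p = 0.0308). FASTKD5, needed for processing of mitochondrial RNA, was 389, 486 and 515 against 308, 279.7 and 290.0 (log2 fold change -0.65, limma adjusted p = 0.153, DESeq2 adjusted p = 0.0180). PNPT1, an exoribonuclease, was 702, 1466 and 1951 against 695, 690.0 and 873 (log2 fold change -0.75), with overlap through UE7T-9 Cont replicate 1. MGME1, FASTKD5 and PNPT1 were also below 0 under library size scaling and TMM normalization, whose shifts were too small to turn changes of this size. The highest of the list, TOP1MT, a mitochondrial topoisomerase, had a log2 fold change of 0.20 (SE 0.25, limma adjusted p = 0.765).

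Regulators of mitochondrial biogenesis had 4 of 12 above 0 (median -0.10), with 1 of 12 at an unadjusted limma p below 0.05, where all genes had 14.4%. PPARGC1A, the coactivator PGC-1alpha, was 295, 551 and 293 against 250.5, 611 and 795 (log2 fold change 0.45, SE 0.40, limma adjusted p = 0.654), and PPARGC1B had a log2 fold change of -0.33. Antioxidant and uncoupling genes had 5 of 14 above 0 (median -0.02), with 4 of 14 at that p. SOD2, the mitochondrial superoxide dismutase, was 3688, 3725 and 3223 against 4055, 9438 and 8935, above every control in each UE7T-9 SHC4 library (log2 fold change 0.98, SE 0.29, limma adjusted p = 0.199, DESeq2 adjusted p = 0.0108). It was the 1 gene of this list with either result, where 9.13% of all genes separated upward and DESeq2 called 2.06% higher. PRDX3, a mitochondrial peroxidase, was 2674, 3318 and 4523 against 2582, 2291 and 2473 (log2 fold change -0.49). Among the mesenchymal markers, whose part in these values was not tested, 7 of 8 had a higher mean in UE7T-9 SHC4. DESeq2 called 1 of the 8 higher, beside 2.06% of all genes. This was PDGFRB (limma log2 fold change 1.38, limma adjusted p = 0.162, DESeq2 log2 fold change 1.23, DESeq2 adjusted p = 0.0171). The lowest was NT5E (log2 fold change -0.36, limma adjusted p = 0.507).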

How the data were processed

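RNA-seq of 3 UE7T-9 Cont and 3 UE7T-9 SHC4 libraries (NEBNext Ultra kit) was used, grouped by the sample titles. The authors deposited 1 signal value per gene and library, a normalized count, which is a read count divided by a size factor of the library. The submitters' processing notes name HISAT2 2.0.5, featureCounts 1.5.0-p3 and DESeq2. The genome build is not given in the sources used here. Whole reads were recovered for 100% of values (tolerance 0.01 reads), and a floor of 3 reads equals 2.50 to 3.53 normalized counts. All 28181 Ensembl identifiers were matched to GENCODE 29 (GRCh38), which gave symbols, positions and exon lengths.

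The test was limma 3.58.1 (lmFit, eBayes with trend) under R 4.3.3, fitted to log2(normalized count + 1). It ran over the 23040 genes whose mean was 1 or more, and p-values were adjusted over all of them by the Benjamini-Hochberg method, with calls at an adjusted p below 0.05. Log2 fold changes are on this scale, which can understate changes of low genes (COX6B2, -0.29 against -0.99 in DESeq2). It can also overstate or reverse them (NDUFA7, 0.65 against 0.13 in DESeq2, and ATP5MF-PTCD1, 0.28 against -0.57). The 5141 genes under that mean were left out of this test. Shares of all genes are over the genes each tool tested. DESeq2 gave a p for 28173 genes and an adjusted p for 16153, and edgeR tested 15859. DESeq2 1.42.0 and edgeR 4.0.16 (quasi-likelihood) on the recovered reads were alternatives, as were library size scaling, TMM normalization, no filter, a minimum mean of 10, a pseudocount of 0.1, an absolute log2 fold change above 1, the replicate number as a block and leaving out each library. The scripts were tested on simulated data. All pairs of libraries differed by more than sampling noise.

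The members and lists were chosen with earlier results of these data known. Named genes were all mitochondrial members, and for each complex the nuclear member highest per kb, the 2 with the highest and the 2 with the lowest log2 fold change, members called by limma or DESeq2, subunits with isoforms and ATP5IF1, and for each other list the called genes and both extremes with a mean of at least 10. NDUFA1 and NDUFA2 were added because their groups did not overlap, and FN1, PTPRC, SPI1, EPCAM and CDH5 for the check of the libraries, all after their values were seen.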

Additional observations from a re-analysis of the deposited data

How the results depend on the processing

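The mitochondrial median log2 fold change stayed positive in all alternatives run, and no member was called under any of them except without replicate 1 of either group, where 3 mitochondrial members and 1 nuclear member were called higher and 1 nuclear member lower. Counts over all genes moved more. Against 13 higher and 2 lower, DESeq2 called 333 and 336, edgeR 10 and 1, library size scaling 22 and 6, TMM normalization 21 and 4, no filter 33 and 10, and the fit without replicate 1 of either group 1216 and 1001. The pseudocount of 0.1 left 1 lower. Leaving out each library gave 1 to 690 higher and 0 to 621 lower, with the highest counts without UE7T-9 Cont replicate 1. The nuclear median was -0.11 under library size scaling, and the difference in nuclear read share was -0.067 percentage points without replicate 1 of either group, against -0.033 with all libraries. The causes were not tested.

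The replicate block gave 28 genes higher and 19 lower and called no member. At an unadjusted limma p below 0.05 it listed 9 of the 13 mitochondrial members and 5 of the 85 nuclear members. Over all genes it listed 4043 of 23040. The deviations of same-numbered libraries correlated at 0.148, 0.013 and -0.00696. The replicate 1 libraries had the highest value of any cross-group pair. Each correlated at -0.108 to -0.0658 with replicates 2 and 3 of the other group. These negative values add little, because deviations from the mean of 3 libraries sum to 0, so 1 positive value pulls the others down. Replicates 2 and 3 correlated more across numbers (0.0992 and 0.0818) than within them, so the numbers were not taken to pair the libraries. All 13 mitochondrial members were higher in UE7T-9 SHC4 in each of the same-numbered comparisons, and the lowest adjusted p under the block was 0.0538 (MT-ND6, limma).

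Some of the named members changed sign, and none of these was called on either side except MT-ATP8, called without replicate 1 of either group. Members that were not named also changed sign and are not listed here. Under library size scaling, 19 of 85 nuclear members lay above 0, against 41 in the limma test. The named members that turned there were ATP5MC3 (-0.0506), COX6B1 (-0.0494), COX7A2L (-0.0637), SDHD (-0.0376) and UQCRH (-0.0544). Under TMM normalization they were COX6A1 (0.00527), SDHA (0.000789) and SDHC (0.00404). DESeq2 gave ATP5MF-PTCD1 -0.57, and the pseudocount of 0.1 gave COX6B2 0.47. Without replicate 1 of either group the log2 fold changes were ATP5MC3 -0.0230, ATP5MF-PTCD1 -0.51, COX6B1 -0.00281, NDUFA7 -0.35, NDUFV2 0.57, SDHA 0.0880, SDHC 0.0101 and UQCRH -0.11. Leaving out each library, the log2 fold change ranged from -0.19 to 0.0333 for ATP5MC1, -0.13 to 0.0559 for ATP5MC2, -0.22 to 0.48 for ATP5MF-PTCD1, -0.00134 to 0.24 for COX4I1, -0.21 to 0.11 for COX6A1, -1.41 to 0.49 for COX6B2, -0.11 to 0.18 for COX7A2L, -0.12 to 1.65 for MT-ATP8, -0.0326 to 0.63 for MT-ND1, -0.16 to 0.68 for MT-ND2, -0.0412 to 0.86 for NDUFA4L2, -0.40 to 1.22 for NDUFA7, -0.66 to 0.17 for NDUFV2, -0.13 to 0.0796 for SDHA, -0.0241 to 0.0178 for SDHC, -0.0758 to 0.22 for SDHD and -0.10 to 0.14 for UQCRH. With 3 libraries a group, 1 of which stood apart in each, differences of the size seen in the mitochondrial mRNAs were not resolved from the spread.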
